A study of Mus musculus with 34 samples.

Results

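SMAD4 and RBPJ binding was compared in bone-marrow-derived macrophages (BMDM) of C57BL/6J mice that had been cultured for 4 days and left untreated. The unit was the reproducible interval, a stretch of genome with a called ChIP-seq peak in both libraries of a factor, the peaks overlapping by at least 1 bp. SMAD4 had 16969 such intervals and RBPJ had 62698. Together they formed 64088 sites. Of these, 15577 held an interval of both factors (both-bound), 1392 held one of SMAD4 with no reproducible RBPJ interval (SMAD4-alone), and 47119 held one of RBPJ with no reproducible SMAD4 interval (RBPJ-alone). The series has 34 samples, of which 8 carried the main comparisons here, 2 libraries each of SMAD4, RBPJ, H3K27ac after DLL4 and H3K27ac in untreated cells. The peak lists of 6 more libraries were used for overlap only: 2 each of SMAD4 and of RBPJ in untreated Kupffer cell nuclei of Clec4f-cre mice, in which a Kupffer cell gene drives Cre, and 2 of LXR in BMDM of culture day 7 given the LXR agonist GW3965 for 18 h. For both factors the cells were fixed with DSG and then formaldehyde. SMAD4 was pulled down with a pair of antibodies and RBPJ with another antibody, while H3K27ac cells were fixed with formaldehyde alone. DLL4, a Notch ligand, was given for 24 h to C57BL/6J BMDM of the same culture day. The labels do not say whether the 2 libraries of a group came from separate cultures, so every p-value below measures the spread between libraries, which may be technical.

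SMAD4 is the common partner of the receptor-activated SMADs and takes part in the transcriptional response to TGF-β and to bone morphogenetic proteins (BMPs). RBPJ is the DNA-binding protein of the Notch pathway. It holds corepressors at its sites and, once a ligand such as DLL4 has released the intracellular part of a Notch receptor, that fragment and Mastermind proteins join it to activate transcription. H3K27ac is the acetylation of lysine 27 of histone H3 and marks active promoters and enhancers. In macrophages such elements are laid down mainly by PU.1, C/EBP and AP-1 factors, and signal-dependent factors bind many of the same elements.

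The promoters printed here belong to sites that the results below describe. Smad6 and Cd68 were both-bound and leaned to SMAD4 and to RBPJ in turn by normalized tag count. Cd68 was not called so by the peak caller's score, as given below. Snx14 was both-bound and also leaned to RBPJ. Ubn2 carried a strong SMAD4-alone interval, and Prc1 and the Notch target Hey2 carried RBPJ-alone intervals. Each run is the 250 bases before the RefSeq start in GRCm38.p6 (the mm10 assembly), on the gene's strand. Capitals mark exact matches on either strand to GTGGGAA (a core RBPJ motif), CAGACA and GGCGCC (SMAD motifs), GGAAGT (the ETS core bound by PU.1 and its relatives) and TGANTCA (AP-1).
Smad6: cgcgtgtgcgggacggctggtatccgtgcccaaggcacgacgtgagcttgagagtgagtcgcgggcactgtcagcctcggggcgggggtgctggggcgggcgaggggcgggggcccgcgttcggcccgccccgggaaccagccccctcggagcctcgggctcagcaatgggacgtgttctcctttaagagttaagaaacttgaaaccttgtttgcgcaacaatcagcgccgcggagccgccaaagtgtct
Cd68: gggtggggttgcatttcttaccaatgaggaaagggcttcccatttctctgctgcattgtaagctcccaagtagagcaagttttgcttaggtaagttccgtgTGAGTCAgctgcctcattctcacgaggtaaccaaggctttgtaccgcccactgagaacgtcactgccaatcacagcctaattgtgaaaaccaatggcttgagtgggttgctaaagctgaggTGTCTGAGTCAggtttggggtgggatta
Snx14: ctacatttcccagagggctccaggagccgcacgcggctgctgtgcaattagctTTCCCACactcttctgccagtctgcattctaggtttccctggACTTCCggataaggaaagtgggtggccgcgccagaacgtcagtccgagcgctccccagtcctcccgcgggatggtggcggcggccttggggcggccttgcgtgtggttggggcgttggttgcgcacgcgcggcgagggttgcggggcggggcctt
Ubn2: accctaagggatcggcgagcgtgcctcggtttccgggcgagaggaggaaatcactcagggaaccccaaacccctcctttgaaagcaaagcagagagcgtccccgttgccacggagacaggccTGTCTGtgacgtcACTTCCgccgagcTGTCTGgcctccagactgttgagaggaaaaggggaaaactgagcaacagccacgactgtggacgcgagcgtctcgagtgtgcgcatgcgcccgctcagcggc
Prc1: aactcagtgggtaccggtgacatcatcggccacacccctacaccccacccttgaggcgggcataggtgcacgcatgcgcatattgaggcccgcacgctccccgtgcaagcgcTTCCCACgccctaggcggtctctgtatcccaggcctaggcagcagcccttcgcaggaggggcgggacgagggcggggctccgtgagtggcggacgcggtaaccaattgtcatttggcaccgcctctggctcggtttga
Hey2: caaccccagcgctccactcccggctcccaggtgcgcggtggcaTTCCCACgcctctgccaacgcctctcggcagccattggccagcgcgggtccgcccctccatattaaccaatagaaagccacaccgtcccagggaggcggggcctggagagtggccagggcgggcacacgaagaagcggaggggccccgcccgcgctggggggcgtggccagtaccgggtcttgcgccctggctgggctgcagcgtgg
The window of Smad6 (chr9:64022060-64022309, minus strand) had no match to any of the 5 motifs. Cd68 (chr11:69666171-69666420, minus strand) had 2 AP-1 matches, one of them overlapping a CAGACA match. Snx14 (chr9:88438930-88439179, minus strand) had 1 RBPJ match and 1 ETS match. Ubn2 (chr6:38433675-38433924, plus strand) had 2 CAGACA matches and 1 ETS match, while Prc1 (chr7:80294201-80294450, plus strand) and Hey2 (chr10:30842784-30843033, minus strand) had 1 RBPJ match each. The Hey2 match lay outside its RBPJ-alone interval (chr10:30842746-30842956). So did the Cd68 AP-1 match farther from the start (interval chr11:69666114-69666309).

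Across all promoter windows of this length that overlapped an interval, the motifs differed between the classes mainly for the ETS core and the GC-rich SMAD motif. GGAAGT was in 31.8% of 2817 both-bound windows, 22.6% of 274 SMAD4-alone windows and 27% of 4581 RBPJ-alone windows, against 20.4% of all 21263 windows. GGCGCC was in 18.0% of both-bound, 27% of SMAD4-alone and 15.4% of RBPJ-alone windows, against 12.3% of all windows. The median GC content moved with it, at 61.2%, 66.4% and 59.2% in the 3 classes and 55.6% in all windows, and its part in the motif shares was not tested. The core RBPJ motif was in 5.68% of both-bound, 4.38% of SMAD4-alone and 5.13% of RBPJ-alone windows, against 5.26% of all windows, so its share hardly varied. CAGACA was in 12.8%, 13.5% and 12.4% of the 3 classes and in 15.2% of all windows, and the AP-1 motif was in 4.79%, 4.01% and 4.04% and in 6.13% of all windows. These are counts of exact letters near starts and say nothing of sites elsewhere.

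SMAD4 sites lay almost wholly within the RBPJ sites. Of the SMAD4 intervals, 91.8% met a reproducible RBPJ interval, while 24.8% of the RBPJ intervals met a reproducible SMAD4 interval. Of the 1392 SMAD4-alone intervals, 932 had an RBPJ peak in a single library and 460 had none. Of the 47119 RBPJ-alone intervals, 17557 had a SMAD4 peak in a single library and 29562 had none. In both-bound sites the peak centres lay a median of 24 bp apart, and 81.2% of pairs lay within 50 bp; overlap had chosen these sites, at median interval lengths of 211 bp for SMAD4 and 161 bp for RBPJ, so closeness is no finding. When the RBPJ list was cut to its strongest intervals, as many as SMAD4 had, 61.9% of the intervals of either factor were shared. That cut changed the length and the strength of the list together.

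The libraries differed in depth and in how many distinct positions they held, and the part of this in the asymmetry was not tested. The SMAD4 libraries had 37103 and 28593 peaks from 11.1 M and 13.9 M mapped tags, and the RBPJ libraries had 80480 and 78976 peaks from 16.6 M and 17.5 M. Of the peaks, 45.7% and 59.3% of the SMAD4 ones and 77.9% and 79.4% of the RBPJ ones overlapped a peak of the other library of the same factor. The peak caller's score counts at most 1 tag per position, and its sum came to 18.8% and 12.4% of the tags in peaks for SMAD4 and 70.8% and 70.3% for RBPJ. Many SMAD4 tags therefore repeated a position already counted, and the median SMAD4 peak rested on 8 and 7 distinct tags, against 27 and 29 for RBPJ. A site missing from the SMAD4 list is not shown to be unbound.

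**Figure D1:**
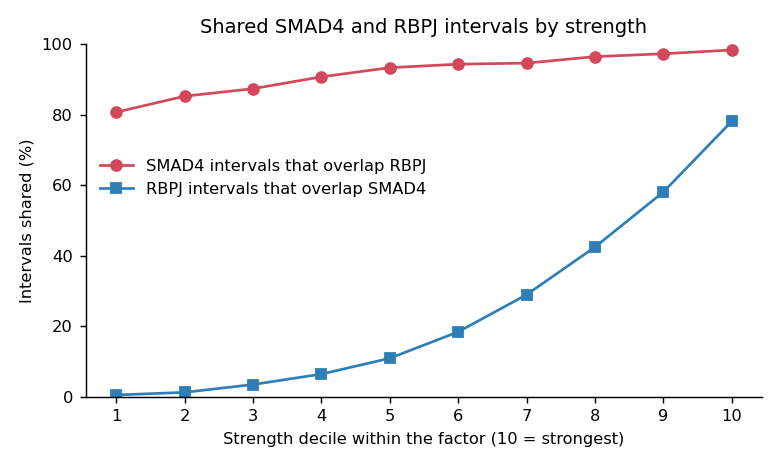
Share of intervals that met a reproducible interval of the other factor (%, y axis) by decile of binding strength within the factor (x axis, 10 the strongest), for SMAD4 (red circles) and RBPJ (blue squares). The SMAD4 share lies between 80.7% and 98.3%, and the RBPJ share between 0.51% and 78.1%.

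Sharing followed binding strength for both factors, as the plot by decile of strength shows. In the weakest decile of SMAD4 intervals 80.7% were shared, and in the strongest decile 98.3% were. For RBPJ the same shares were 0.51% and 78.1%, so even among the strongest RBPJ intervals 1375 lacked a reproducible SMAD4 interval. Strength is given as the deposited normalized tag count, the tags in a peak scaled to a library of 10 M tags. For SMAD4 the median was 53.8 and 52.4 in both-bound sites and 37.7 and 38.1 in SMAD4-alone sites, a ratio of 1.40. For RBPJ it was 57.8 and 56.6 in both-bound sites and 21.1 and 21.2 in RBPJ-alone sites, a ratio of 2.70. The libraries of a factor agreed closely in these medians, but over single intervals SMAD4 agreed less well. The log2 values of its libraries correlated at 0.592 (Pearson) over SMAD4 intervals, against 0.935 for RBPJ over RBPJ intervals. Over both-bound sites a SMAD4 and an RBPJ library correlated at 0.502 to 0.569. The interquartile ranges of the classes overlapped for SMAD4. They were 36.8 to 81.6 in both-bound and 27.8 to 52.9 in SMAD4-alone sites of the first library. At the weak end, the lowest value kept as reproducible was 8.08 and 7.18 for SMAD4 and 4.22 and 4 for RBPJ.

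The classes sat at different places relative to genes. SMAD4-alone sites were the most often promoter-proximal: 34.2% lay within 1 kb of a gene start (95% Wilson interval 31.8 to 36.7%, counting error only), against 23.1% of both-bound (22.4 to 23.7%) and 14.9% of RBPJ-alone sites (14.6 to 15.2%). The share over all H3K27ac rows was 20.5%. The median distance to a start was 11355 bp for both-bound, 4667.5 bp for SMAD4-alone and 17350 bp for RBPJ-alone sites. The order of both-bound and RBPJ-alone sites depended on RBPJ strength. Both-bound sites had the higher share within 1 kb in deciles 1 to 8 of RBPJ strength, at 23.6% against 15.3% in decile 5. It was 23.5% against 26.6% of RBPJ-alone sites in decile 9, and 20.0% against 30.5% in decile 10, the strongest. The order of SMAD4-alone and both-bound sites turned when a single SMAD4 library defined the list: it was 19.6% without the first SMAD4 library, against 22.8% of both-bound sites, and 20.2% against 22.0% without the second. Sites of a class share 2 libraries per factor and are not replicates, and an exact paired test over 2 libraries cannot go below 0.5, so class differences in strength, position and acetylation are descriptions.

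Median acetylation was lower at RBPJ-alone sites than at the others. Of both-bound sites 98.9% overlapped a row of the deposited H3K27ac table (rows of 2000 bp), against 93.0% of SMAD4-alone and 84.0% of RBPJ-alone sites. In untreated cells the median level in the 2 libraries was 12.1 and 12.4 CPM (tags of the row per M tags of the TMM-scaled library) for both-bound, 13.0 and 12.8 for SMAD4-alone, and 2.67 and 2.64 for RBPJ-alone sites, with 2.96 and 3.00 over all rows. In the median, both-bound sites therefore stood 4.61-fold above RBPJ-alone sites, and RBPJ-alone sites were near the level of the whole table. The ratio was 1.40 when the RBPJ list was cut to the length of the SMAD4 list. The interquartile ranges overlapped, at 4.62 to 26.7 CPM in both-bound and 0.923 to 9.33 CPM in RBPJ-alone sites of the first library. Sites without a row are not in these values.

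**Figure D2:**
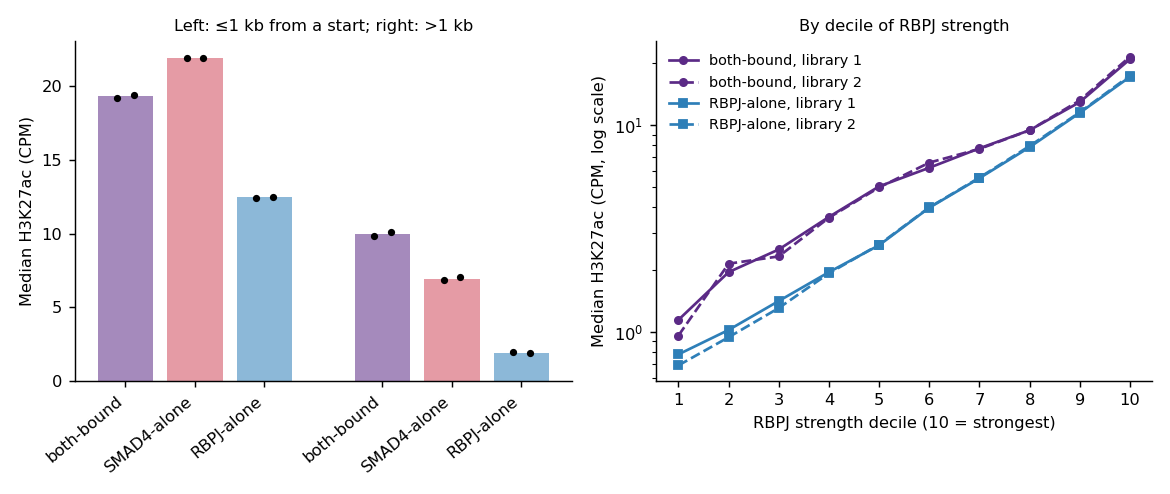
Median untreated H3K27ac (CPM). On the left, bars give the mean and points the 2 libraries for each class, within 1 kb of a start and over 1 kb away; on the right, lines give both-bound and RBPJ-alone sites by decile of RBPJ strength, 1 line per library, on a log scale. SMAD4-alone sites are highest within 1 kb and below both-bound sites over 1 kb away, and both-bound sites lie above RBPJ-alone sites in all 10 deciles.

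Position changed the order of both-bound and SMAD4-alone sites. Within 1 kb of a start the medians were 19.2 and 19.4 CPM for both-bound, 22.0 and 21.9 for SMAD4-alone, and 12.4 and 12.5 for RBPJ-alone sites. Over 1 kb from a start they were 9.86 and 10.1, 6.88 and 7.02, and 1.94 and 1.88 CPM. The ratio of both-bound to SMAD4-alone sites was thus 0.949 over all sites and 1.44 over distal sites, and no order of those classes holds across positions. Part of the gap to RBPJ-alone sites moved with RBPJ strength: in decile 5 of RBPJ strength both-bound sites had 5.05 and 4.99 CPM and RBPJ-alone sites 2.62 and 2.64, and in the strongest decile 20.8 and 21.4 CPM against 17.1 and 17.4. The both-bound medians were higher in all 10 deciles, within which RBPJ strength was close but not equal: in decile 10 its medians were 98.8 and 95.5 in both-bound and 89.2 and 85.8 in RBPJ-alone sites.

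Read the other way, SMAD4 was found mainly at highly acetylated rows, and RBPJ was spread more widely. In the least acetylated decile of all rows 1.41% overlapped a reproducible SMAD4 interval and 31.3% an RBPJ interval. In the most acetylated decile the shares were 64.6% for SMAD4 and 89.1% for RBPJ. Among the marker lists, macrophage genes had the highest acetylation at their starts. The 20 genes had a median of 54.0 and 54.2 CPM there and all had a row, against 11.8 and 11.9 CPM over all genes with such a row. Neutrophil markers had a row at 8 of 12 starts, with medians of 3.11 and 4.47 CPM, and Ly6g, Elane, Mpo and Prtn3 had none. Lymphocyte markers had a row at 2 of 12 starts, dendritic cell markers at 7 of 12, erythroid and megakaryocyte markers at 5 of 12 and stromal and endothelial markers at 1 of 10. Summed over the starts of a list, the CPM was 1167 and 1181 for macrophage genes and 79.0 and 92.7 for neutrophil markers. It was 71.2 and 84.2 for erythroid and megakaryocyte markers, so some starts of other lists were acetylated too.

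The 10 strongest both-bound sites all lay over 1 kb from a start. The site near Nenf, which encodes a secreted neurotrophic factor (chr1:191269587-191269818, 48416 bp from the start), had normalized tag counts of 458.5 and 358.3 for SMAD4 and 236 and 234 for RBPJ. Near Ifnar2, a chain of the type I interferon receptor (chr16:91354641-91354831, 18047 bp upstream), SMAD4 had 295.2 and 339.7 and RBPJ 230.8 and 240.8. Both sites stood far above the both-bound medians of each factor in every library. Near Irf2bp2, a transcriptional corepressor that binds IRF2, SMAD4 had 343 and 346 and RBPJ 173 and 177. The other sites of the 10 strongest lay near Abr, Ncoa3, Dppa3, Sephs2, Ms4a14, Tmed10 and Spata32.

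Counts of both-bound sites by nearest start within 100 kb were not scaled to the span around each start. Some genes had many such sites. Sgms1, a sphingomyelin synthase, had 19 and Runx1, a master regulator of blood formation, had 18. Zfp36l2, an mRNA decay factor, also had 18, Tns3 had 16 and Ubash3b had 15. All of these also had RBPJ-alone sites, with 21 at Sgms1, 21 at Runx1, 13 at Zfp36l2, 11 at Tns3 and 22 at Ubash3b.

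SMAD4-alone sites reached high levels at a few promoters. The strongest lay 49 bp from the start of Kbtbd7, a substrate adaptor of the CUL3 ubiquitin ligase (chr14:79426414-79426705), with 212 and 238 SMAD4 tags. The Ubn2 promoter shown above (interval chr6:38433732-38433913) had 229.7 and 160.1, and Ubn2 encodes a subunit of the HIRA histone chaperone. P2ry6, the UDP receptor of macrophages, had 189 and 184 at 13649 bp from its start. Each of these lies well above the SMAD4-alone medians. Junb, an AP-1 subunit, had a SMAD4-alone site 1102 bp upstream (154 and 163) beside a both-bound site 68 bp upstream, where SMAD4 had 87.0 and 96.9 and RBPJ 150.0 and 150.4. The others of the 10 lay near Dlx2, Ldlrad4, Ccr1, Sqstm1, Coq10a and Atp13a2, and Ldlrad4 encodes an inhibitor of TGF-β signalling.

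The strongest RBPJ-alone sites lay both at promoters and at distal positions. The Prc1 promoter shown above (interval chr7:80294232-80294388) had 257 and 248 RBPJ tags, and Prc1 organises the mitotic spindle midzone. Ypel2 had 259 and 264 at 31760 bp upstream. A site 7356 bp upstream of Spen, whose product is a corepressor recruited by RBPJ, had 243 and 193, while the Spen start itself was both-bound, with 154 and 205 for SMAD4 and 94.0 and 86.4 for RBPJ. Daxx, a histone H3.3 chaperone, had 220.5 and 199 at 567 bp. The RBPJ sites near Clec4d, a C-type lectin of myeloid cells (173 and 186), and Lrp1, an endocytic receptor (184 and 172), lay in rows with 110.5 and 113.8 and with 63.4 and 68.5 CPM of H3K27ac, so RBPJ-alone sites were not uniformly weakly acetylated.

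Macrophage and lysosome genes all had at least 1 both-bound site, and nearly all TGF-β and BMP targets did. Of 20473 genes with a known start, 32.6% had a both-bound site assigned to them as the nearest start within 100 kb, 5.80% a SMAD4-alone site and 63.3% an RBPJ-alone site. Among genes nearest to an H3K27ac row the shares were 42.4%, 7.55% and 81.2%. All 20 macrophage genes and all 20 lysosome genes had a both-bound site, as did 21 of 22 TGF-β and BMP targets, 19 of 20 NF-kB response genes and 16 of 17 AP-1 and immediate early genes. Smaller shares were found among Notch targets (10 of 18, 55.6%), TGF-β and BMP receptors and SMADs (10 of 20, 50%) and type I interferon genes (9 of 19, 47.4%). These shares still lay above those of all genes and of genes nearest to an H3K27ac row. Neutrophil markers had 3 of 12 (25%) and lymphocyte markers 4 of 12 (33.3%). Notch receptors and RBPJ partners had 17 of 22 (77.3%) and LXR targets 14 of 20 (70%). These counts are descriptions, and no list was tested.

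**Figure D3:**
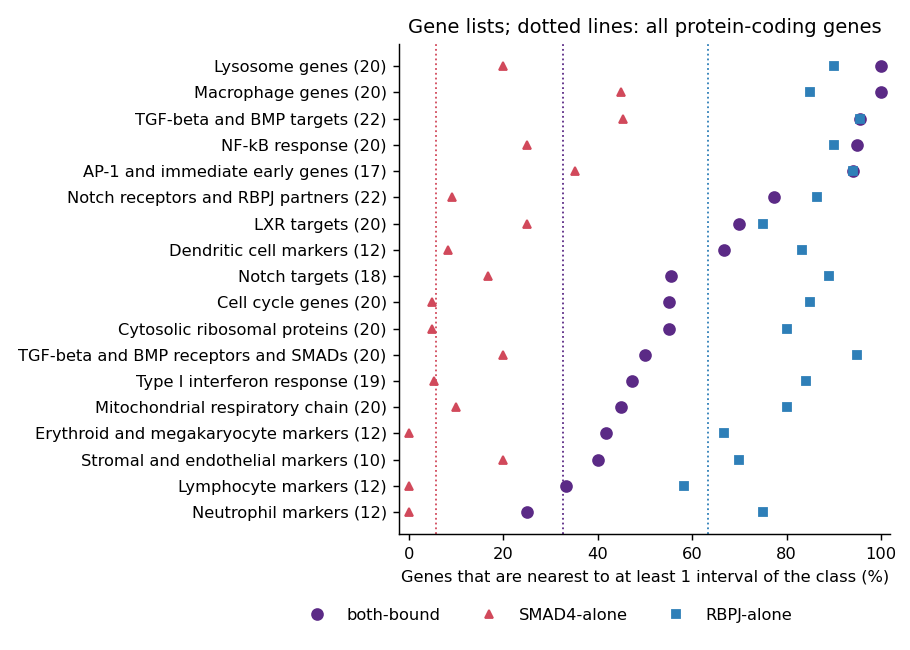
Share of the genes in each list that were nearest to at least 1 site of a class (%, x axis), with the number of genes in brackets; dotted lines give all protein-coding genes. Macrophage and lysosome genes reach 100% for both-bound sites (purple circles), against 32.6% of all genes, and RBPJ-alone sites (blue squares) are widespread in every list.

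The normalized tag counts of SMAD4 and RBPJ were compared in the 15577 both-bound sites by limma on log2(value + 1), each library centred on its median, because antibodies of different strength share no common scale. A site called here is therefore higher for one factor relative to the typical both-bound site. With an adjusted p below 0.05 and at least a 2-fold difference, 321 sites were higher for SMAD4 (2.06% of those tested) and 25 higher for RBPJ (0.16%). Without the adjustment 3383 sites had a p below 0.05. Without the first or the second RBPJ library 160 and 154 sites were higher for SMAD4, 158 and 150 of them among the 321. Without the first or the second SMAD4 library, where the spread comes from the closely agreeing RBPJ libraries, 1654 and 1566 were higher for SMAD4 and 1058 and 947 higher for RBPJ. In every called site the 2 centred libraries of a factor lay wholly above or below the 2 of the other, which a call at this threshold favours. The sites had been chosen by having a peak in all 4 libraries, so sites with little of one factor could not enter.

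Of the 10 genes named for the largest differences toward SMAD4, at sites above the median level, 4 (Skil, Smad7, Smad6 and Ski) belong to the list of TGF-β and BMP targets. At Skil, which encodes the SMAD corepressor SnoN, a site 366 bp upstream (chr3:31094593-31094792) had 536 and 361 SMAD4 tags against 24.7 and 30.3 RBPJ tags. The log2 difference was 4.06 with a standard error of 0.28 (limma, adjusted p = 0.00196). At the Smad7 start, 182 bp upstream, SMAD4 had 301 and 361 and RBPJ 27.1 and 25.7 (log2 3.70, standard error 0.25, adjusted p = 0.00196). Smad7 encodes an inhibitory SMAD that blocks the receptors. At the Smad6 start, overlapping the promoter printed above (chr9:64021976-64022157), SMAD4 had 672 and 705 and RBPJ 68.7 and 75.5 (log2 3.34, standard error 0.17, adjusted p = 0.000632). Smad6 encodes the other inhibitory SMAD. At Ski, a SMAD corepressor, a site 4981 bp from the start had 341 and 436 for SMAD4 and 42.2 and 44.6 for RBPJ (log2 3.23).

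At all 4 genes the SMAD4 values lay several-fold above the RBPJ ones, each on the scale of its own antibody. Full separation of the libraries was a condition for naming these sites, so it is no further support. Counted with 1 tag per position, the Smad6 site had 116 and 92 SMAD4 tags against 78 and 84 RBPJ tags. That is close in absolute number, but the median both-bound site had 12 and 9 SMAD4 tags against 67 and 69 RBPJ tags on the same scale. With this score in the test 754 sites were higher for SMAD4 and 135 higher for RBPJ, and 306 of the 321 sites and 16 of the 25 were among them.

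**Figure D4:**
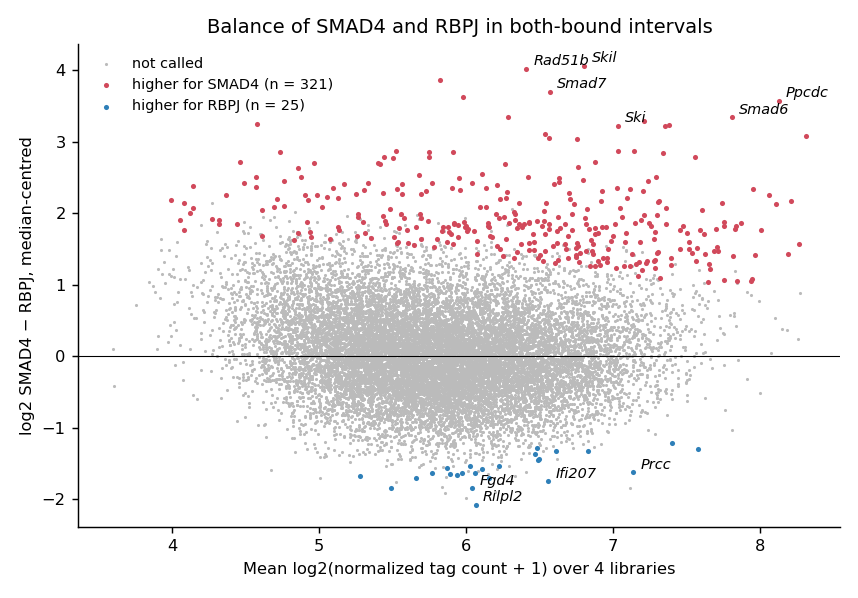
Difference between SMAD4 and RBPJ in each of the 15577 both-bound sites (log2, libraries median-centred, y axis) against the mean log2(normalized tag count + 1) over the 4 libraries (x axis). The 321 sites higher for SMAD4 (red) reach 4.06 at Skil, and the 25 higher for RBPJ (blue) reach -2.08 at Rilpl2.

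Over the 22 TGF-β and BMP targets, 13 of 96 both-bound sites were higher for SMAD4 and 0 higher for RBPJ. This is 13.5% of the list's sites, set beside 2.06% of all both-bound sites. The 13 sites belonged to 8 genes, namely Smad6 (2), Smad7 (3), Ski (2), Skil (2), Id1, Id2, Id3 and Cd9. The Id genes encode inhibitors of basic helix-loop-helix factors and are classic BMP targets. At Id3, 531 bp upstream, SMAD4 had 306.9 and 220.5 and RBPJ 63.9 and 68.1. At Id1, 1044 bp upstream, SMAD4 had 177 and 135 and RBPJ 36.2 and 46.3. At Id2, 2814 bp upstream, SMAD4 had 113 and 94.1 and RBPJ 15.7 and 16.6. At these 3 sites the libraries of the factors did not overlap, as at every called site. The median log2 difference over the list was 0.52, against 0.03 over all both-bound sites. The list had 27 and 28 sites higher for SMAD4 without the first and the second SMAD4 library, and 10 and 11 without the first and the second RBPJ library. The shares of all both-bound sites called so in those fits were 10.6%, 10.1%, 1.03% and 0.989%.

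Other targets in the same list stood near the typical balance. At Atf3, which encodes a partner of AP-1 subunits, the strongest site had 331 and 208 for SMAD4 and 277 and 273 for RBPJ, and at Ccr1, a chemokine receptor, it had 129 and 116 for SMAD4 and 131 and 114 for RBPJ. At the receptor gene Tgfbr1 a site 37670 bp upstream was higher for SMAD4, with 558 and 515 against 128 and 99.5 for RBPJ (log2 2.35, limma adjusted p = 0.00254). Tgfbr1 belongs to the receptors and SMADs, where 6 of 32 sites were higher for SMAD4, 5 of them at Smad6 and Smad7.

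Sites higher for SMAD4 were mostly distal, while several of those at TGF-β and BMP targets lay near starts. Skil (366 bp upstream), Smad7 (182 bp), Smad6 (7 and 975 bp) and Id3 (531 bp) had such sites within 1 kb. Within 1 kb of a start lay 8.72% of all 321, against 40% of sites higher for RBPJ and 23.3% of sites not called. The 321 sites had median SMAD4 values of 177 and 156 and median RBPJ values of 47.6 and 46.3. Among them was a site near Ppcdc, an enzyme of coenzyme A synthesis, with 893 and 964 for SMAD4 and 96.4 and 71.5 for RBPJ. Other large differences lay near Rad51b (log2 4.02), Kdm1a, Wdyhv1, Ccny and Lhfpl2. Of AP-1 and immediate early genes 5 of 75 sites were higher for SMAD4 (6.67%, at Fosl2, Egr3, Ier3 and Egr1), beside 2.06% of all both-bound sites. Of Notch targets it was a single site of 28 (3.57%, near the share of all sites), a site 20469 bp from the start of Notch1 with 315 and 202 for SMAD4 and 112 and 85.2 for RBPJ.

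Only 25 sites were higher for RBPJ. The call itself picks sites low in SMAD4 relative to RBPJ, so their medians are no separate finding. In these sites the median SMAD4 values were 35.9 and 38.8 and the median RBPJ values 134 and 127. The largest difference lay 158 bp upstream of Rilpl2, which binds Rab proteins and regulates trafficking to the primary cilium, with 31.4 and 29.4 for SMAD4 and 158 and 127 for RBPJ (log2 -2.08, standard error 0.28, limma adjusted p = 0.0156). At Snx14, a sorting nexin of the endolysosome whose promoter is printed above, SMAD4 had 33.2 and 38.1 and RBPJ 131 and 111 (log2 -1.63). The macrophage scavenger receptor gene Cd68, 42 bp upstream of its start, had 111 and 101 for SMAD4 and 261 and 271 for RBPJ (log2 -1.21, standard error 0.19, limma adjusted p = 0.0262). Cd68 was the only called site among 99 both-bound sites of the macrophage genes. With the findPeaks score in the test, 0 of the 99 were higher for RBPJ and 2 higher for SMAD4, so the Cd68 call was not kept. On that score Cd68 had 29 and 19 for SMAD4 and 202 and 207 for RBPJ. The median both-bound site had 12 and 9 for SMAD4 and 67 and 69 for RBPJ. None of these 25 sites was called by limma when either RBPJ library was left out, where 0 sites (without the first) and 1 site (without the second) were higher for RBPJ and 1003 and 1028 had an unadjusted p below 0.05 in either direction. The spread then comes from the SMAD4 libraries alone, and the log2 difference stayed at -1.94 and -2.23 at Rilpl2 and at -1.86 and -1.84 at Fgd4.

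Of the 18 Notch targets, 3 had a both-bound site within 1 kb of the start (16.7%, against 16.3% of all genes) and 7 an RBPJ-alone site there (38.9%, against 29.6%). Hes5 and Heyl, effectors of Notch in the Hes and Hey families, had no site of any class, Hey1 had 3 RBPJ-alone sites and none of SMAD4, and Hey2 had 1 RBPJ-alone site at its start with 34.3 and 37.2 tags. Nrarp, a feedback inhibitor of Notch, was both-bound 108 bp upstream, with 27.8 and 23.7 for SMAD4 and 30.7 and 32.6 for RBPJ. The Hey2 site lay above the upper quartile of RBPJ-alone sites (33.7 in both libraries), while the Nrarp site lay below the both-bound medians of both factors. Among receptors and partners, Notch2 had 10 both-bound and 14 RBPJ-alone sites, Rbpj itself had 4 and 17, and Psen2, a catalytic part of γ-secretase, had a both-bound site with 359.8 and 189.6 for SMAD4 and 196.4 and 179.6 for RBPJ. On the SMAD side, Smad4 itself had 1 RBPJ-alone site, 97 bp upstream of its start (30.7 and 22.9), and no SMAD4 interval.

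Hes1, the textbook Notch target, had no reproducible interval at its start. In the start row single-library peaks only were seen, 1 of SMAD4 in its first library (16.2 tags) and 2 of RBPJ in its second (highest 15.4). Its only both-bound site lay 73993 bp upstream, with 60.1 and 40.9 for SMAD4 and 24.1 and 24.6 for RBPJ. The start row nevertheless had 15.5 and 16.2 CPM of H3K27ac in DLL4-treated cells, against 0.292 and 0.543 CPM in untreated cells (log2 5.17, standard error 0.28, edgeR adjusted p = 1.77e-16). The both-bound row upstream had 11.8 and 14.4 CPM with DLL4 and 6.41 and 5.86 CPM untreated (log2 1.10). The ChIP of both factors was made without ligand, so binding after DLL4 was not analysed here.

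Whether the classes marked where acetylation responds to DLL4 was asked over the whole table. Of 82089 rows tested, 4018 were higher with DLL4 (4.89%) and 2164 lower (2.64%), by edgeR's quasi-likelihood test with an adjusted p below 0.05 and at least a 2-fold change. Of 21663 rows with a both-bound site, 1050 were higher (4.85%) and 537 lower (2.48%), so they responded about as often as all rows. Of 1081 SMAD4-alone rows 34 were higher (3.15%) and 12 lower (1.11%), and of 38473 RBPJ-alone rows 1974 were higher (5.13%) and 1221 lower (3.17%). Rows with no interval had 4.63% higher and 1.91% lower. The RBPJ-alone shares also lie near those of all rows. The SMAD4-alone shares are lower, and the difference was not tested.

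**Figure D5:**
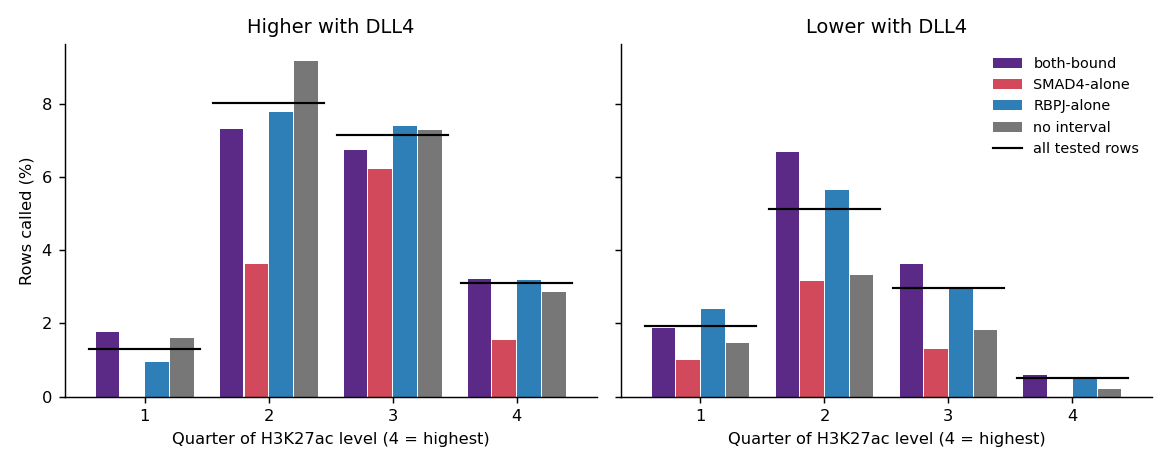
Share of tested H3K27ac rows called higher (left) and lower (right) with DLL4 (%, y axis) by quartile of H3K27ac level (x axis, 4 the highest), for each class of untreated binding; black lines give all tested rows. In the highest quartile 3.22% of both-bound rows were higher, against 3.11% of all rows.

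The shares differed more between positions than between classes. Within 1 kb of a start 0.912% of both-bound, 1.39% of SMAD4-alone and 1.37% of RBPJ-alone rows were higher with DLL4, against 1.43% of all rows. Over 1 kb away the shares were 6.41%, 4.32% and 6.20%, against 5.91%. Among rows of both-bound sites higher for SMAD4, 31 of 305 were higher with DLL4 (10.2%) and 7 lower (2.30%), and of 25 rows of sites higher for RBPJ 0 were higher or lower. Of 14911 rows of both-bound sites not called for either factor 5.05% were higher and 2.99% lower. These groups of rows were not tested against each other, and they differ in position. Within 1 kb of a start lay 8.72% of sites higher for SMAD4 and 23.3% of sites not called, and the part of this was not tested. By quartile of H3K27ac level, in the plot of responding rows, both-bound rows were higher with DLL4 in 1.77%, 7.31%, 6.73% and 3.22% from the lowest quartile to the highest, against 1.30%, 8.02%, 7.15% and 3.11% of all rows.

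Among responding both-bound rows with the largest change, Runx3, a transcription factor of leukocytes, had a row 40624 bp upstream with 20.6 and 24.7 CPM with DLL4 and 1.80 and 1.99 CPM untreated (log2 3.57, standard error 0.19). Its site had 50.2 and 26.6 SMAD4 tags and 62.7 and 61.8 RBPJ tags. Near Ascc1 the row had 35.1 and 32.3 CPM with DLL4 and 3.64 and 2.93 CPM untreated (log2 3.37), and near Rxra, the shared partner of nuclear receptors, 16.5 and 18.4 CPM against 3.16 and 1.85 CPM (log2 2.83). The Ascc1 site had 67.3 and 72.5 SMAD4 tags and 75.3 and 68.1 RBPJ tags. The both-bound medians were 53.8 and 52.4 for SMAD4 and 57.8 and 56.6 for RBPJ. Lower rows included Rnf141, with 4.46 and 3.99 CPM with DLL4 and 20.3 and 21.1 CPM untreated (log2 -2.29). SMAD4-alone rows higher with DLL4 included Acp5, a phosphatase of osteoclasts and macrophages, with 19.2 and 15.7 CPM against 1.90 and 2.28 CPM untreated (log2 3.05). The largest RBPJ-alone changes were near Adgrl3, with 16.7 and 19.1 CPM with DLL4 against 1.22 and 0.253 CPM untreated (log2 4.72), and Mpp6 (log2 4.50).

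Of TGF-β and BMP receptors and SMADs 5 of 20 genes had at least 1 row higher with DLL4 (25%) and 1 a lower row (5%), and of Notch receptors and RBPJ partners 3 of 22 had a higher row and 3 a lower row (13.6% each). Of all 14277 genes with a tested row 11.4% had a higher and 8.46% a lower row, so the share of Notch receptors and partners with a higher row lies near the background. Of the 18 Notch targets 2 had a higher row (11.1%) and 3 a lower row (16.7%). Of the 22 TGF-β and BMP targets 7 had a higher row (31.8%) and 5 a lower row (22.7%). These shares rest on few genes and were not tested. Tgfbr1 had 8 rows higher with DLL4, 3 of them both-bound, and the row of its site that was higher for SMAD4 had 74.6 and 81.6 CPM with DLL4 against 30.8 and 35.2 CPM untreated (log2 1.24, edgeR adjusted p = 2.06e-14). Tgfbr2 had 7 higher rows, 2 of them both-bound. Rbpj had 6 lower rows, 3 of them both-bound, the strongest of these at 46747 bp upstream with 9.16 and 9.99 CPM with DLL4 against 24.0 and 28.3 CPM untreated (log2 -1.45). Of macrophage genes 10 of 20 had a higher row (50%) and 3 a lower row (15%). A gene counts once any of its rows is called, so genes with more rows are counted more readily. Macrophage genes had medians of 4 both-bound and 5.5 RBPJ-alone sites per gene, against 0 and 1 over all genes. The neighbours C1qa, C1qb and C1qc were counted separately. The share over all genes is thus not a like background, and the part of this was not tested. Csf1r, the receptor that macrophages need to survive, had 6 higher rows and all were RBPJ-alone. Those counts are of overlapping rows: 50.9% of rows overlap a neighbour.

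Both-bound sites were also the most often found in other macrophage data of the series. SMAD4 peaks in nuclei of Kupffer cells, the resident macrophages of the liver, met 68.3% and 54.6% of both-bound sites in the 2 nuclei libraries, 52.6% and 43.6% of SMAD4-alone and 26.9% and 17.3% of RBPJ-alone sites. Both nuclei libraries thus gave the same order of the classes. For RBPJ in Kupffer cell nuclei the shares were 31.3% and 25.8%, 16.7% and 13.6%, and 11.4% and 8.89%. LXR peaks in GW3965-treated BMDM met 70.9% and 65.1%, 33.1% and 29.1%, and 35.8% and 26.8%. In all 6 libraries both-bound sites were met most often, and strength moved with class as given above; its part in these shares was not tested. Sites higher for SMAD4 were met by Kupffer cell SMAD4 peaks in 81.6% and 72.3% of cases, which compares with 64% and 48% of the 25 sites higher for RBPJ and 68.0% and 54.3% of sites not called. The sites higher for SMAD4 also had more SMAD4 tags, at medians of 177 and 156 against 53.8 and 51.7 in sites not called, and the part of this was not tested.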

How the data were processed

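The authors' files were used as deposited. Per the submitters' processing notes, Bowtie2, HOMER and the mm10 build were used, and their versions are not given in the sources used here. Per the file headers, peaks were called by HOMER findPeaks in each library against its input, with an FDR of 0.001, at least 4-fold over input and at most 1 tag per position. The deposited normalized tag count is a signal scaled to 10 M tags, the findPeaks score is a whole-number score per peak, the fold over input is a ratio, and the focus ratio is a fraction, all per the file headers. The deposited H3K27ac table holds raw counts of tags per 2000 bp row, over rows that the authors merged from their peak lists of both conditions, with totals over rows of 20.2 M to 27.2 M per library, where a tag in overlapping rows counts more than once.

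Peaks of 2 libraries were joined when they overlapped by at least 1 bp, and SMAD4 and RBPJ intervals in the same way. Each interval took the H3K27ac row whose centre was nearest, in CPM, and the nearest protein-coding gene within 100 kb. Starts of 17492 genes came from RefSeq promoter windows (GRCm38.p6), and those of 2981 more from the distances in the deposited table. Of 320 listed genes 316 had a start. Because the normalized tag counts are not whole tags, SMAD4 and RBPJ were compared with limma 3.58.1 (trend, log2(value + 1), median-centred), in place of edgeR, which had been planned. The findPeaks score is a whole number, but it was used only as an alternative within limma. DLL4 and untreated H3K27ac were compared with edgeR 4.0.16 (TMM, filterByExpr, quasi-likelihood test) over the whole table, under R 4.3.3. Both p-values were adjusted by Benjamini-Hochberg over all features tested, and both scripts were tested on simulated data. Intervals and floors cover counting error only.

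Members and gene lists were chosen with earlier results of these data known. The sites named are the 10 strongest of each class, the 10 largest called differences in each direction between SMAD4 and RBPJ, the 5 largest called H3K27ac changes in each class and direction (each 1 per gene, libraries fully separated, and level above the median), and list members; Sgms1, Zfp36l2, Tns3 and Ubash3b were named after their counts of sites were seen. The promoters printed were chosen after the values were seen.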

Additional observations from a re-analysis of the deposited data

How the results depend on the processing

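Which intervals are shared depended on the lists. With an overlap of 50% of the shorter interval, 90.4% of SMAD4 and 24.5% of RBPJ intervals were shared, with at least 8-fold over input 69.0% and 19.1%, with the RBPJ list cut to the SMAD4 length 61.9% of each, and leaving out 1 library 74.1 to 95.0% and 20.0 to 43.8%. The share within 1 kb of a start was 14.2% of both-bound and 28.6% of SMAD4-alone sites at 8-fold over input, and 21.9%, 27.3% and 26.9% (RBPJ-alone) with the RBPJ list cut. It was 11.2% of RBPJ-alone sites without any SMAD4 peak, and within 3 kb the shares were 30.8%, 44.5% and 21.7%. Leaving out 1 library gave 22.0 to 23.6%, 19.6 to 34.4% and 13.0 to 14.2%.

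The strength ratio of both-bound to SMAD4-alone sites was 1.36 at 50% overlap and 1.64 with the RBPJ list cut, and 1.38 to 1.55 leaving out 1 library. For RBPJ the ratio was 2.40 at 8-fold, 1.23 with the list cut, 3.48 for sites without any SMAD4 peak, 2.47 by score, and 2.47 to 3.23 leaving out 1 library. The H3K27ac ratio of both-bound to RBPJ-alone sites was 3.69, 1.40, 7.56 and, over distal sites, 5.22, with 4.44 to 5.05 leaving out 1 library. That of both-bound to SMAD4-alone sites (0.949) changed direction at 8-fold over input (1.36), with the RBPJ list cut (2.19), over distal sites (1.44) and without either SMAD4 library (1.08 each), with 0.774 to 1.08 leaving out 1 library. It was 0.882 at 50% overlap, 0.613 for sites without any RBPJ peak and 0.921 over all overlapping rows. The causes were not tested.

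The limma counts were 754 and 135 by score, a choice made after seeing the data, as was the distal split. Leaving out 1 library gave 154 to 1654 higher for SMAD4 and 0 to 1058 higher for RBPJ. DESeq2, TMM and filterByExpr were not run on this comparison, since the normalized tag counts compared are not whole tags. Replicate numbers did not pair the libraries: deviations of same-numbered libraries correlated at 0.0271 (SMAD4 and RBPJ) and 0.0190 (DLL4 and untreated). With the replicate number as a block limma called 938 and 328 sites and edgeR 4096 and 2284 rows. With 1 row per merged block of overlapping rows, edgeR called 2603 rows higher and 1365 lower with DLL4, among them 339 lower both-bound, 22 higher SMAD4-alone, and 1313 higher and 802 lower RBPJ-alone rows. Without median centring all SMAD4 differences fell by 0.11 in the median (log2), and without TMM those of DLL4 by 0.06. The SMAD4 libraries limit what can be called absent.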
